A study of Homo sapiens with 6 samples.

Results

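The 7 genes described here encode the topoisomerases TOP1, TOP2A and TOP2B, the repair enzymes TDP1, TDP2 and PARP1, and the drug efflux pump ABCG2. Each gene was defined by a span on hg19, given in whole kb and extended by 5 kb on each side. Every deposited H3K27ac peak that overlapped a span by at least 1 bp was taken. This gave 449 of the 1440888 peaks in 6 peak lists. The knockout control, 2 h and 4 h lists held 94, 72 and 103 of them, and the parental control, 2 h and 4 h lists held 65, 61 and 54.

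H3K27ac, a histone mark of active promoters and enhancers, was mapped by ChIP-seq in the established human leukemia line CCRF-CEM, which the labels call T lymphoblast. Cells with a knockout of SLFN11, a protein known to sensitise cells to DNA-damaging drugs, were given camptothecin at 100 nM, for 2 h in one library and 4 h in another, or the vehicle DMSO as control. Wild-type parental cells were sampled in the same 3 conditions. The labels state neither whether the knockout is a single clone nor how it was made, and their extraction protocol mentions only the 4 h treatment. No gene annotation on hg19 entered the work, so neither the SLFN11 locus nor T cell marker genes were checked against the labels. Each of the 6 groups had 1 library, so no difference described here has a replicate check and none was tested.

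Topoisomerases relieve the twist that builds up in DNA during transcription and replication by cutting and rejoining it. Camptothecin traps topoisomerase 1 on the cut strand, and the trapped enzyme is called a cleavage complex. TDP1 removes the remains of topoisomerase 1 from the DNA end, TDP2 does so for topoisomerase 2, and PARP1 senses the strand break and recruits repair factors. ABCG2 pumps several topoisomerase inhibitors out of the cell.

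The libraries differed in depth. The background pileup, in fragments per base, was solved from the commonest combination of fold and p among the peaks of a list. It was 0.699, 0.715 and 0.168 in knockout control, 2 h and 4 h, and 0.603, 0.506 and 0.570 in parental control, 2 h and 4 h. The knockout 4 h library thus stood apart, and results for knockout cells at 4 h rest on it alone. In it 59.7% of the 410176 peaks carried that combination, which corresponds to a pileup of 1 fragment. Peaks covered 6.36%, 5.24% and 6.25% of chromosomes 1 to 22 and X in the knockout lists and 4.07%, 4.13% and 4.19% in the parental lists, in the same order. The fold and −log10 p of a peak are the authors' values, and a −log10 p is lower at lower depth for the same enrichment. The fold also depends on depth. It has 1 added to both pileup and background, which pulls it toward 1 in a shallow library. Ranks are by −log10 p, with 1 the strongest.

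In all 6 libraries, 6 of the 7 genes had their strongest peak within 2 kb of the 5′ end of the span. ABCG2 was the exception. These 6 peaks at gene starts were among the strongest 5% of peaks in every list, and all were among the 30000 strongest. Without a gene annotation on hg19, the share of all genes with such a start peak was not counted. A strong start peak is therefore not shown to be particular to these genes. By rank the 6 start peaks fell into 2 ranges that did not overlap. Strength, taken as −log10 p, was compared over 18835 common regions, made by merging the 15000 strongest peaks of each library except knockout 4 h. The start regions of TOP1, TOP2A and TOP2B ranked between 109 and 1487 of these in the 6 libraries, and those of TDP1, TDP2 and PARP1 between 3789 and 8796. By fold the 2 sets overlapped. The start fold ran from 5.49 to 5.82 for TOP1, 6.05 to 7.81 for TOP2A and 5.45 to 5.73 for TOP2B. It ran from 4.90 to 5.44 for TDP1, 4.55 to 6.95 for TDP2 and 4.53 to 7.28 for PARP1. The spans held 8 common regions in all, the 6 start regions and 1 each inside TOP1 and ABCG2. Every one of the 8 held a deposited peak in each library except the inner TOP1 region, which held none in knockout 4 h.

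**Figure D1:**
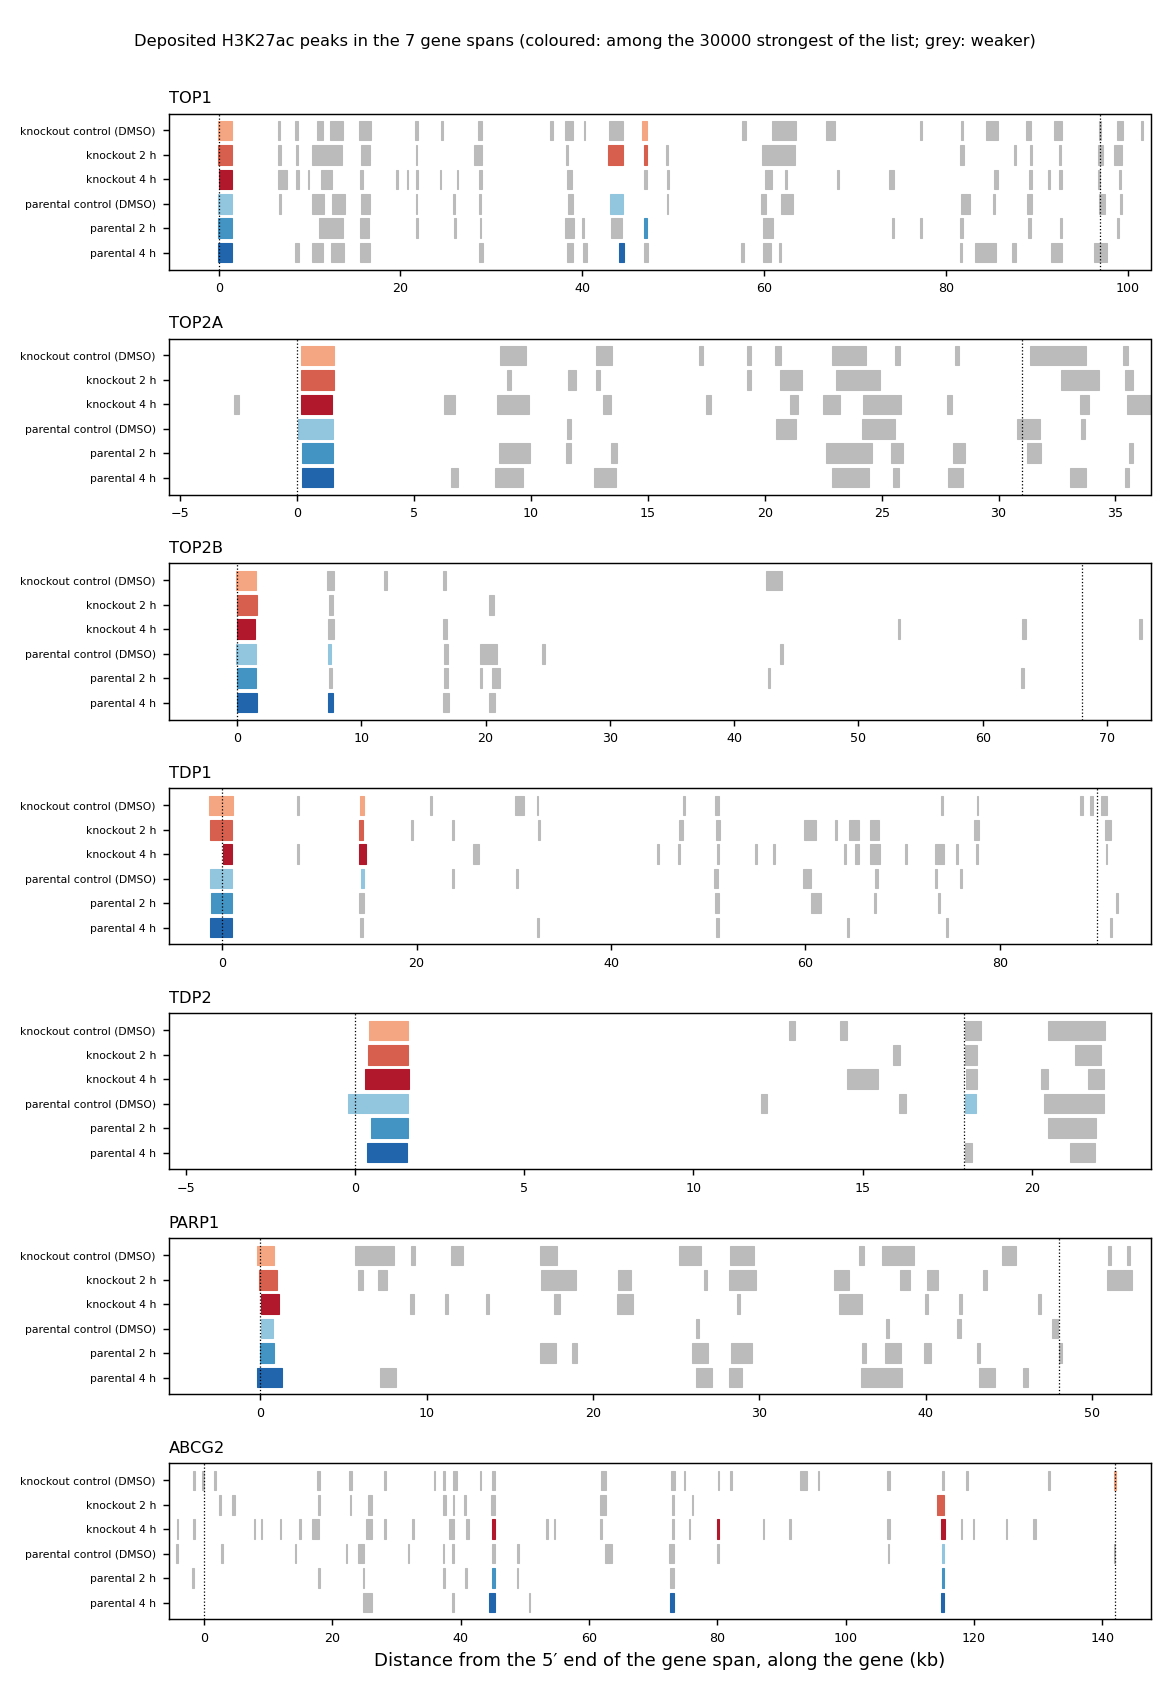
Deposited peaks in the 7 gene spans by distance in kb from the 5′ end of the span, with 1 row per library and dotted lines at both ends of the span. Coloured bars are peaks among the 30000 strongest of their list and grey bars are weaker ones; a coloured bar stands at the start of every gene but ABCG2 in all 6 libraries.

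**Figure D2:**
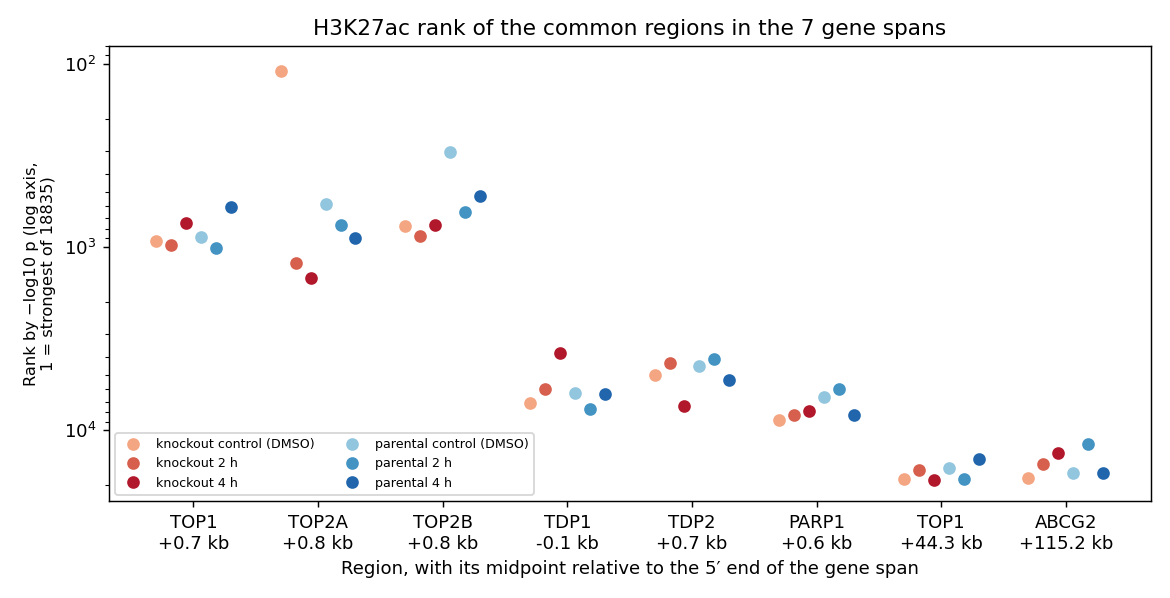
Rank by −log10 p of the 8 common regions in each of the 6 libraries, on a log axis where 1 is the strongest of 18835. The topoisomerase start regions lie between 109 and 1487, the repair enzyme start regions between 3789 and 8796, and the inner TOP1 and ABCG2 regions below them.

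TOP1 encodes the target of camptothecin. The stretch of its start peak that all 6 lists covered ran from 39657007 to 39658468 on chromosome 20. The fold of the peak was 5.54, 5.65 and 5.58 in knockout control, 2 h and 4 h, and 5.49, 5.66 and 5.82 in parental control, 2 h and 4 h. These folds differed little between genotypes or times. As the fold depends on depth, similar folds in libraries of unequal depth need not mean similar enrichment. The −log10 p was 37.0, 40.3 and 15.0 in the knockout libraries and 36.8, 33.9 and 41.9 in the parental libraries, so the lowest value came from the shallow library. Among common regions it ranked 928, 972 and 738 in the knockout libraries and 886, 1014 and 608 in the parental libraries. The parental 4 h and knockout 4 h libraries gave it its best ranks, and the genotypes overlapped.

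TOP2A encodes topoisomerase 2 alpha, the form made in dividing cells. Its start peak had a fold of 7.43, 6.58 and 6.05 in knockout control, 2 h and 4 h, and 6.56, 7.81 and 7.32 in parental control, 2 h and 4 h. The order with time thus differed between the genotypes, with the highest fold in knockout control on one side and in parental 2 h on the other. The common region, on chromosome 17 from 38573423 to 38574969, ranked 109, 1233 and 1487 in the knockout libraries. It ranked 584, 762 and 891 in the parental libraries. Knockout control held the best rank of any start region here, and in both genotypes the control ranked this region above both treated libraries. By fold this order held in the knockout libraries only, since parental control had the lowest parental fold. How many of all regions share this order of ranks in both genotypes was not counted.

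TOP2B encodes topoisomerase 2 beta, the form also present in cells that do not divide. Its start peak had a fold of 5.57, 5.67 and 5.45 in knockout control, 2 h and 4 h, and 5.63, 5.73 and 5.66 in the parental libraries. The fold therefore varied less than for TOP2A. Its region, on chromosome 3 from 25705423 to 25707059, ranked 771, 874 and 760 in the knockout libraries and 303, 648 and 529 in the parental libraries. All 3 parental libraries ranked it above all 3 knockout libraries, while the folds of the genotypes overlapped. How many of all regions separate the genotypes in this way was not counted, so nothing particular to TOP2B is read from it.

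The start region of TDP1 lay on chromosome 14 from 90420700 to 90423082 and was the widest of the 6. Its ranks were 7112, 5975 and 3789 in the knockout libraries, control first and then 2 h and 4 h, and 6288, 7732 and 6359 in the parental libraries. The fold was 4.90, 5.44 and 5.28 in the knockout libraries and 4.9996, 5.15 and 5.23 in the parental libraries. The peak was 2383 and 2312 bp wide in knockout control and 2 h, and 2241, 2212 and 2232 bp in the parental libraries, and it reached past the 5′ end of the span on its upstream side. In knockout 4 h it was 968 bp wide and began at 90422096, on the TDP1 side only. In RefSeq, EFCAB11 lies next to the start of TDP1 and is read in the opposite direction, so a peak across this place cannot be given to 1 of them.

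TDP2 has a similar neighbour. In RefSeq, ACOT13 starts beside it on the other strand. Its start region, on chromosome 6 from 24666434 to 24668217, ranked 5042, 4291 and 7412 in the knockout libraries in order of time, and 4486, 4118 and 5332 in the parental libraries. The fold was 6.62, 6.88 and 4.55 in the knockout libraries and 6.10, 6.95 and 6.37 in the parental libraries. Knockout 4 h was lowest by both measures, and it was also the library with the lowest background pileup (0.168); the part of depth in this was not tested. The peak was 1147, 1173 and 1295 bp wide in the knockout libraries and 1784, 1074 and 1201 bp in the parental libraries. Parental control therefore had the widest peak, through its upstream side.

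PARP1 had the narrowest stretch of start mark, with 710 bp covered in all 6 lists on chromosome 1 from 226595211 to 226595920. The fold was 6.10, 6.57 and 4.53 in knockout control, 2 h and 4 h, and 7.27, 7.28 and 5.86 in the parental libraries. Among common regions it ranked 8796, 8333 and 7834 in the knockout libraries and 6647, 5984 and 8240 in the parental libraries. At matched times the parental libraries had the higher fold in all 3 comparisons, and by rank in the control and 2 h comparisons but not at 4 h. The background pileup at 4 h was 0.168 in knockout and 0.570 in parental cells, and the part of depth was not tested. How many of all regions had a higher parental fold in all 3 comparisons was not counted.

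Promoter sequences of these genes were read from RefSeq on GRCh38, which is not the build of the peaks, so the windows were not placed under a peak. They are shown because the genes divide at their starts into 6 with a strong peak and 1 without. Each is the 250 bases before a RefSeq start, on the strand of the gene. Capitals mark the CCAAT box (CCAAT or ATTGG), the GC box (GGGCGG or CCGCCC) and GCGCATG (or CATGCGC), part of the known recognition sequence of the factor NRF1, with both strands searched. These 3 motifs were chosen after the sequences had been read. TOP1 and TOP2A stand for the drug target and for the gene with the best rank. TDP1 and TDP2 are the enzymes next to a gene on the opposite strand. The first ABCG2 window is at its outermost start and the second at an inner start.
TOP1, chr20:41028572-41028821, + strand: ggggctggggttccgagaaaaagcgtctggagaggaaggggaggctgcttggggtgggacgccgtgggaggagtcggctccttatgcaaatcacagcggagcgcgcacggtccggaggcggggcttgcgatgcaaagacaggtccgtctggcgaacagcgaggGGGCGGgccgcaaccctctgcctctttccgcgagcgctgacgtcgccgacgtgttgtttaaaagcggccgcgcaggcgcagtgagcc
TOP2A, chr17:40417897-40418146, − strand: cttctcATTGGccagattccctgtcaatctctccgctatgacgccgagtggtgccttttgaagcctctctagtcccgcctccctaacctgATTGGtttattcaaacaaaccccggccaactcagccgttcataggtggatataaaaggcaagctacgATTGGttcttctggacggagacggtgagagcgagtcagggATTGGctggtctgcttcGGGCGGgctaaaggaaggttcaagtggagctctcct
TDP1, chr14:89955677-89955926, + strand: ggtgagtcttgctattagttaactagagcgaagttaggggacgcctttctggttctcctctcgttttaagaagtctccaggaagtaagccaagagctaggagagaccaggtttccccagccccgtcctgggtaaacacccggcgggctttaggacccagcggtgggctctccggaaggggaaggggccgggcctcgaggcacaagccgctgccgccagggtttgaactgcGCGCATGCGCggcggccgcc
TDP2, chr6:24666900-24667149, − strand: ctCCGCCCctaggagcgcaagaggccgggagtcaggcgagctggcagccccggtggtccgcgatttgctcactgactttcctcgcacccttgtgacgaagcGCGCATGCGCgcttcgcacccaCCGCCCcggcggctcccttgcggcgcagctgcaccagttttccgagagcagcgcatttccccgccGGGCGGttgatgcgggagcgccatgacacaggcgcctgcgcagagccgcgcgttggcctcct
ABCG2 outermost start, chr4:88231627-88231876, − strand: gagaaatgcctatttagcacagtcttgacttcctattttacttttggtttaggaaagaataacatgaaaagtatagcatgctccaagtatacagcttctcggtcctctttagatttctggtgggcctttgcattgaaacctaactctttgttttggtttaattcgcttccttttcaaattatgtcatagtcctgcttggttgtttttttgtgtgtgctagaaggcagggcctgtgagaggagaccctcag
ABCG2 inner start, chr4:88158860-88159109, − strand: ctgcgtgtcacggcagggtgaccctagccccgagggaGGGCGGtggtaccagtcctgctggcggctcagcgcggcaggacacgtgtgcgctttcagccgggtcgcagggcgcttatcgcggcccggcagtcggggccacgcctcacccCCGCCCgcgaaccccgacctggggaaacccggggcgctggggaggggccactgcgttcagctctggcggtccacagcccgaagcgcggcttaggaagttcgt

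All 7 genes had a window in this table, 12 windows in all. The TOP2A window held 4 CCAAT boxes, and 0.874% of the 35116 windows of all genes held 4 or more. At least 1 CCAAT box was in 32.0% of all windows, and the outer TOP2B window held 2. GCGCATG or CATGCGC was in the TDP1 and TDP2 windows, each time on both strands with the 2 matches overlapping, and in 3.77% of all windows. Of the other windows of the 7 genes, 1 inner ABCG2 window, chr4:88159291-88159540, held 1 match. The ACOT13 window also held it, and it overlaps that of TDP2. The GC box was in 42.6% of all windows, and TOP1 and TOP2A held 1 each, PARP1 held 2, TDP2 held 3 and the outer and inner TOP2B windows held 2 and 1. TDP1 held 0. GC content was 66.8% in the TOP1 window and 53.2% in the TOP2A window, 61.6% in that of TDP1 and 70.0% in that of TDP2. The median of all windows was 58.0%. The outermost ABCG2 window had a GC content of 40.0%, with 2 CG dinucleotides and none of the 3 motifs. The inner ABCG2 window printed here had 72.4%, with 29 CG dinucleotides and 2 GC boxes. The other 3 inner windows of ABCG2 ranged from 43.6% with 0 GC boxes to 73.6%. A motif match describes letters only.

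No strong peak stood at the outermost start of ABCG2. Within 2 kb of it lay 3 peaks in knockout control, 0 in knockout 2 h and 1 in knockout 4 h, and 1 peak in parental 2 h against 0 in the other parental lists. The strongest of them, in knockout control, was 207 bp wide with a fold of 2.71 and ranked 44109 in its list. In knockout control the strongest peak of the whole span lay at the other end, from 89010896 to 89011186, with a fold of 3.55. By contrast 3 weak sites further inside the span were covered in all 6 lists.

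The first of these, from 89107714 to 89108078 on chromosome 4, lay 45.1 kb inside the span. Its fold was 3.06, 2.901 and 3.79 in knockout control, 2 h and 4 h, and 2.95, 4.16 and 3.95 in the parental libraries. The treated parental libraries were both above parental control, and of the knockout libraries 4 h was highest. The next site, from 89079796 to 89079995, lay 73.1 kb inside. RefSeq places 4 inner ABCG2 starts between 72.3 and 73.0 kb from the outermost start on GRCh38. The fold there was low, at 2.32, 2.88 and 1.71 in the knockout libraries and 2.41, 2.82 and 3.29 in the parental libraries. The knockout 4 h value is the commonest fold of that list, at a pileup of 1 fragment, so no drop is read from it. In parental 4 h the peak at this site ranked 24155 in the list, the only time it was among the 30000 strongest.

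The last site was the only common region in ABCG2, from 89037663 to 89038012, 115.2 kb inside the span. It is the parental 2 h peak itself, the only one here among the 15000 strongest of a library used to make the regions, with list rank 12392. A strong rank in parental 2 h is therefore built into its choice. Its fold was 2.93, 4.72 and 2.83 in knockout control, 2 h and 4 h, and 3.63, 5.43 and 3.48 in the parental libraries. The fold was highest at 2 h in both genotypes. The −log10 p was 3.15, 6.90 and 3.69 in the knockout libraries and 4.37, 7.81 and 4.09 in the parental libraries. The parental 2 h peak was the only one away from a gene start, over the 7 spans and 6 libraries, with a −log10 q of at least 5. Among common regions it ranked 18258, 15330 and 13278 in the knockout libraries and 17130, 11897 and 17076 in the parental libraries. By rank the knockout 4 h library was therefore strongest in its genotype.

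Camptothecin was set against DMSO by the change in rank of these 8 regions, where a difference of more than 3000 places was called. A rank change is treated minus control, so a negative value means a stronger region after camptothecin. In knockout cells at 2 h, 0 of the 8 regions passed, against 9.19% of all regions. At 4 h, 2 passed, against 31.3% of all regions. They were ABCG2, with a change of −4980, and TDP1, with a change of −3323, and they come from the shallow library. Ranked by fold, the ABCG2 change was −2602.5 places and no longer passed. In parental cells at 2 h, 1 passed, the inner ABCG2 region with a change of −5233, against 16.9% of all regions. Since that region was chosen through parental 2 h, the direction is set by the choice and nothing is read from it. At 4 h 0 passed, against 14.6%. These counts were close to or below the share of all regions, and with 8 regions they give nothing particular to these genes. The TOP1 start region moved by 44 and −190 places in knockout cells at 2 h and 4 h, and by 128 and −278 in parental cells.

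**Figure D3:**
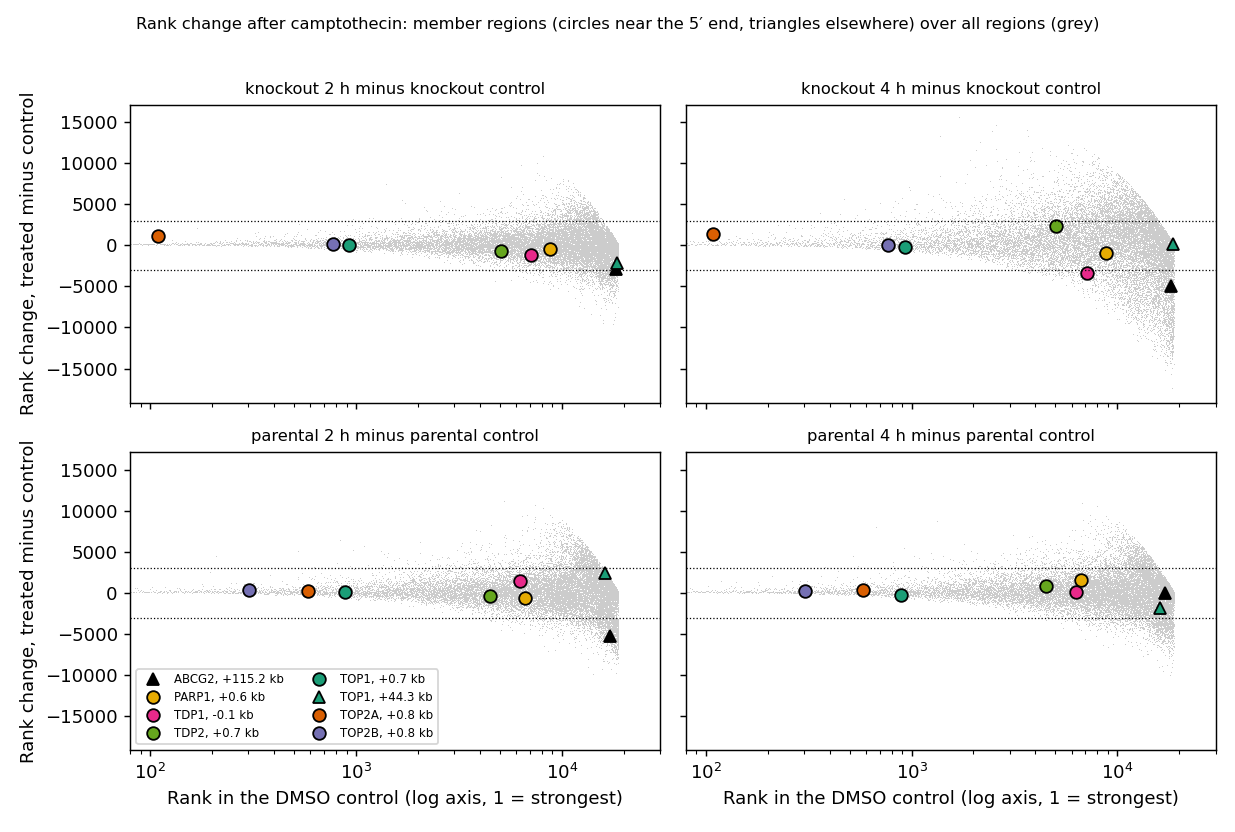
Rank change after camptothecin, treated minus control, against the rank in the control on a log axis; small grey points are all 18835 regions, coloured symbols the 8 regions of the 7 genes and dotted lines a change of 3000 places. The ABCG2 region passes the line in parental 2 h and knockout 4 h and TDP1 in knockout 4 h; the start regions of the topoisomerases stay inside the lines.

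A gap of 3000 places can scarcely be reached by a region near the top, so a rank ratio of at least 2 was also counted, chosen after seeing the data. In knockout cells at 2 h and at 4 h the TOP2A start region passed, weaker after camptothecin, 1 of 8 regions each time. Of all regions 2.45% passed at 2 h and 14.3% at 4 h. In parental cells at 2 h the TOP2B start region passed as weaker by rank, 1 of 8 against 3.72% of all regions. Its fold was not lower, at 5.63 in parental control and 5.73 at 2 h. The background pileup was 0.603 in parental control and 0.506 at 2 h, and the part of depth was not tested. At 4 h 0 of 8 passed, against 3.96%. Both knockout comparisons share the knockout control library, in which TOP2A ranked 109, and near the top a ratio of 2 takes few places. The share among regions of similar rank was not counted.

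The genotypes were compared at matched times, knockout minus parental, so that a positive rank change means a weaker region in knockout cells. In the DMSO controls 0 of 8 regions passed the gap of 3000 places, against 15.0% of all regions. The largest difference was in the inner TOP1 region, at 2436 places, and PARP1 followed with 2149. At 2 h, 1 region passed, ABCG2 with 3433 places, against 20.0% of all regions, again toward the library through which it was chosen. At 4 h, 2 passed, ABCG2 with −3798 and the inner TOP1 region with 4363 places (4362.5 with ties averaged), against 34.3%. The inner TOP1 region was chosen through parental 4 h alone, so its direction here is likewise set by the choice. Ranked by fold, the ABCG2 difference at 4 h was −489.5 places and did not pass. By the rank ratio, 2 of 8 passed in the controls against 2.93% of all regions: TOP2A was stronger and TOP2B weaker in knockout control. Both rank near the top, where a ratio of 2 takes few places, so the share of all regions is a poor yardstick. The fold in knockout and parental control was 7.43 and 6.56 for TOP2A, and 5.57 and 5.63 for TOP2B. At 2 h and 4 h 0 of 8 passed by the ratio, against 4.48% and 15.4%.

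The inner TOP1 region, from 39700993 to 39701576 on chromosome 20, lay 44.3 kb inside the span and is the parental 4 h peak, with list rank 14957. Its −log10 p was 2.45 and 5.62 in knockout control and 2 h, with no peak at 4 h, and 5.36, 2.43 and 6.21 in parental control, 2 h and 4 h. High and low values thus alternated across conditions in both genotypes. Close by, from 39703798 to 39704113 in knockout 4 h, every list but parental control held a peak, with a fold between 1.94 and 3.63. No site in TOP1 other than its start was among the 30000 strongest in all 6 lists.

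The genes also differed in how much of the whole span, start included, was marked. Cover was expressed as the percentage of the span under peaks divided by the percentage of the genome covered in the same library, called relative cover. A value of 1 means as much as the genome at large. TOP2A had a relative cover of 3.21, 3.35 and 3.001 in knockout control, 2 h and 4 h, and 3.10, 4.09 and 4.13 in the parental libraries. TOP1 had 2.70, 2.85 and 1.55 in the knockout libraries and 2.98, 2.55 and 3.44 in the parental libraries. Both genes were above 1 in every library. TOP2B had 0.795, 0.573 and 0.621 in the knockout libraries and 1.24, 1.04 and 0.865 in the parental libraries. These parental values were all above the knockout values, but not in base pairs, where the TOP2B span held 3945, 2341 and 3029 bp in the knockout libraries and 3927, 3333 and 2829 bp in the parental libraries. With only peaks of a −log10 p of 2 or more, knockout 4 h had a relative cover of 1.26, above parental control with 1.18 and parental 4 h with 1.01. ABCG2 had 0.865, 0.710 and 1.01 in the knockout libraries and 0.985, 0.432 and 0.598 in the parental libraries. It was below 1 in every library except knockout 4 h.

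TDP1 had a relative cover of 1.02, 1.65 and 1.12 in the knockout libraries and 1.21, 1.15 and 0.851 in the parental libraries. TDP2 had 2.07, 1.72 and 1.84 in the knockout libraries and 3.75, 2.17 and 1.81 in the parental libraries. Parental control stood highest for TDP2. Part of this cover lay past the 3′ end of the span, between 24645857 and 24647528 in knockout control, the side on which RefSeq has KIAA0319 as the next gene. That site was covered in all 6 lists with a fold between 2.31 and 3.02.

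PARP1 had the widest variation, with a relative cover of 3.16, 3.47 and 1.42 in knockout control, 2 h and 4 h, and 0.728, 2.64 and 3.23 in parental control, 2 h and 4 h. In base pairs its span held 11667, 10546 and 5149 bp in the knockout libraries and 1717, 6330 and 7847 bp in the parental libraries. Parental control was the lowest of all 6. Apart from the start peak these were weak peaks, and the strongest of them had a −log10 q between 0.169 and 1.13 over the 6 lists. No stretch outside the start was covered in all 6 lists.

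**Figure D4:**
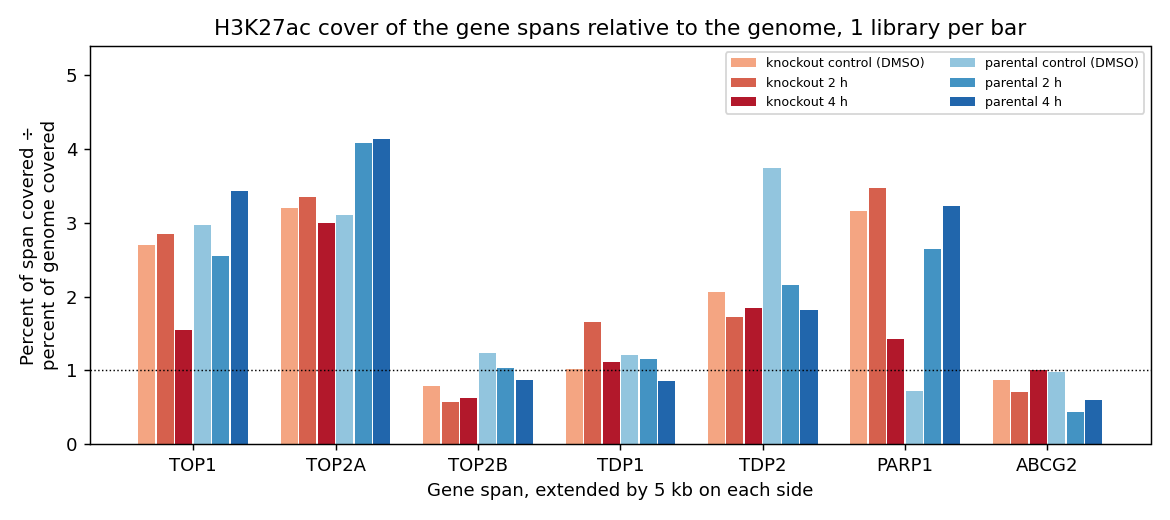
Percentage of each gene span under deposited peaks divided by the percentage of the genome covered in the same library, with 1 bar per library and a dotted line at 1. TOP1 and TOP2A are above 1 in all 6 libraries, and parental control is the lowest bar of PARP1 (0.728) and the highest of TDP2 (3.75).

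A difference in relative cover of at least 2-fold was set against 50 kb tiles of the genome, 35925 tiles with a peak in every library. In knockout cells 0 of 7 genes passed at 2 h, against 18.5% of tiles. At 4 h 1 passed, PARP1 with 0.450 times the control, against 20.2% of tiles. In parental cells 2 passed at 2 h, PARP1 with 3.63 times and ABCG2 with 0.438 times the control, against 23.9% of tiles. At 4 h 2 passed, PARP1 with 4.43 times and TDP2 with 0.484 times the control, against 22.6%. Both parental comparisons of PARP1 rest on the 1 parental control library. Between genotypes 1 passed in the controls, PARP1 with 4.34 times the parental value in the knockout, against 23.8%. At 2 h 0 passed, against 24.0%. At 4 h 2 passed, PARP1 with 0.440 and TOP1 with 0.452 times the parental value, against 30.4%, with the shallow library as the knockout side. The spans are between 28 and 152 kb long with their extensions, so tiles are only a rough yardstick. The genes that passed depended on which peaks were used. The share of tiles was not counted for peaks of a −log10 p of at least 2, so those results have no background beside them. With peaks of a −log10 p of at least 2, PARP1 passed in knockout 2 h with 2.44 and in parental 2 h and 4 h with 2.39 and 2.05 times the control. It no longer passed in knockout 4 h, with 0.714 times the control, or between genotypes, with 1.45 in the controls and 0.503 at 4 h. TOP2A then passed in knockout 2 h with 0.477 and in parental 4 h with 2.98 times the control, and between the controls with 2.08. TOP1 passed in knockout 4 h with 0.483 times the control, but not between genotypes at 4 h, with 0.580. ABCG2 in parental 2 h and TDP2 in parental 4 h no longer passed, with 0.730 and 0.503.

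The share of marked bases that all libraries held in common also varied between the genes. Of the bases covered in any library, 22.97% were covered in all 6 for TOP2B, 20.9% for TDP2 and 8.98% for TOP2A. The share was 7.41% for TDP1, 6.81% for TOP1, 3.82% for ABCG2 and 3.13% for PARP1, and 6.92% over chromosomes 1 to 22 and X. Most of the common bases lay at the starts, 1462 of 2089 bp in TOP1, 1255 of 1383 bp in TOP2A, 1447 of 1557 bp in TOP2B and all 710 bp in PARP1. In TDP1 they were 931 of 1216 bp and in TDP2 1067 of 1267 bp. Of the 833 common bp of ABCG2, 0 were near its outermost start. Bases covered in 1 library only made up 69.3% of the marked bases of ABCG2, 42.2% of those of TOP2B and 53.0% over the genome.

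Small sites inside the genes were shared as well. TOP1 held 4 of them, between 11.4 and 28.8 kb inside its span, with a fold between 1.83 and 2.88 over the 6 libraries. In TDP1 a site 14.3 kb inside the span, from 90436242 to 90436446, had a fold of 3.47, 3.95 and 3.25 in knockout control, 2 h and 4 h, and 3.47, 2.98 and 2.61 in the parental libraries. The parental values were lower after camptothecin than in the control, with no replicate to judge this by. In TOP2B a site 7.47 kb inside the span, from 25699472 to 25699581, had 2.61, 2.74 and 2.20 in the knockout libraries and 3.12, 2.29 and 3.85 in the parental libraries. No direction with time was shared by the genotypes there.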

How the data were processed

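Each of the 6 lists holds broad peaks of 1 library on hg19, with no pooling of samples. The submitters' processing notes name MACS2 2.1.2, the aligner BWA 0.7.17, the trimmers Trimmomatic 0.39 and Trim Galore 0.6.2, and also Picard 2.9.2 with SAMtools 1.8. Settings, and which control the peak calls used, were not given in the sources used here. The deposited fold is the ratio of pileup over local background, with 1 added to both. The deposited −log10 p and −log10 q are those of each peak in its own library, and the deposited score, 10 times that −log10 q, was not used. Common regions were merged from the 15000 peaks of smallest p of each library except knockout 4 h, on chromosomes 1 to 22 and X; each took the largest −log10 p of the peaks in it, and regions without a peak shared the mean of the last ranks. Reads were not analysed here, and depth was taken from the background pileup.

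Peaks were assigned, ranked and counted with Python 3.11.15, pandas 2.3.3 and numpy 2.4.6. All 7 genes are named. For each gene the strongest region, the region nearest the 5′ end of its span and every common region past the gap are described. The members and lists were chosen with earlier results of these data known. The comparison of region ranks was tried on data simulated from the parental control list alone, with slight noise and no difference in depth. Only regions of a middle range of −log10 p were changed there. That trial therefore does not cover the strongest or weakest regions, or libraries of unequal depth. The overlap step was checked against a direct count, and tile cover was checked on a made list of known cover. Alternatives were a gap of 2000 places, strength from the fold, regions from 10000 peaks, spans without extension, and other peak choices for the covered length. The planned counts over other pathway genes and cell type markers were not run, since no hg19 gene annotation was at hand; these genes were not analysed here. Promoter windows and neighbouring genes come from RefSeq on GRCh38.p14. The rank ratio, relative cover and motifs were chosen after seeing the data.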

Additional observations from a re-analysis of the deposited data

Results flagged for a closer look

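The start region of TDP1 changed rank by −log10 p in opposite directions after 2 h of camptothecin, by −1137 places in knockout cells (stronger) and by 1444 places in parental cells (weaker). Each change exceeded the median change of all regions in its comparison, 851 places in knockout and 1120 in parental cells. The inner TOP1 region did the same, with −2136 places in knockout cells and 2405 in parental cells. The fold of the TDP1 start peak, however, was higher at 2 h than in the control in both genotypes. It was 4.90 and then 5.44 in knockout cells, and 4.9996 and then 5.15 in parental cells. The share of all regions with such opposite rank changes was not counted. With 1 library per group the difference between genotypes was not tested.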

How the results depend on the processing

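Of the 8 common regions, a gap of 2000 places in place of 3000 counted 2 in knockout 2 h, 3 in knockout 4 h and 2 in parental 2 h against their controls, and between genotypes 2 in the controls, 3 at 2 h and 4 at 4 h. Ranking by fold counted 2 in knockout 2 h, 3 in knockout 4 h, 2 in parental 2 h and 1 in parental 4 h against control, and between genotypes 1 in the controls and 2 at 2 h. Regions from the 10000 strongest peaks did not include the ABCG2 region or the inner TOP1 region, so neither could pass. Among the regions left, TDP1 passed in knockout 4 h with −3415 places, the only 1 there. At that setting 0 passed in parental 2 h against control, and 0 between genotypes at 2 h and at 4 h. The rank ratio counted 1 in knockout 2 h and 1 in knockout 4 h, and between genotypes 2 in the controls, 0 at 2 h and 0 at 4 h. Spans without extension changed none of the counts as reported. The share of all regions that passed was not counted for the gap of 2000 places, the ranking by fold or the 10000 peaks. The counts at these settings therefore have no background beside them. For 2-fold differences in relative cover, spans without extension gave 1 gene in parental 4 h and 3 between genotypes at 4 h, where TDP1 joined with 2.099. Peaks with a −log10 p of at least 2 gave 2 genes in knockout 2 h, 1 in parental 2 h and 0 between genotypes at 4 h; where the count stayed the same above 0, in knockout 4 h, parental 4 h and between the controls, the genes differed. Apart from the regions lost with 10000 peaks, the cause of these changes was not tested. Under the rank ratio the called regions and their direction changed: in knockout 4 h the gap called 2 stronger regions and the ratio 1 weaker one, and in parental 2 h the gap called 1 stronger and the ratio 1 weaker. The covered length of 42 gene and library pairs moved in 42 when peaks needed a −log10 q of 5 or more, in 42 with the 30000 strongest peaks and in 40 with the strongest 50 Mb. It moved in 33 without the extension and in 1 when at least 50% of a peak had to lie in the span. A length counted as moved when it left a binomial interval around the reported length. That interval is narrow, since it treats each base of the span as an independent trial. Each of these choices can only shorten the cover, so the counts do not measure robustness.

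No paired analysis was possible because each group has 1 library and the labels give no replicate numbers. The ranks of the knockout 4 h library rest on fewer fragments than the others, and more than 50% of its peaks are at a pileup of 1 fragment.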
